A study of Mus musculus with 6 samples.

Results

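The long intergenic noncoding RNAs (lincRNAs) described here are the genes that the deposited table types as lincRNA and that held at least 60 raw counts summed over its 6 libraries. Of 2769 lincRNA rows among 35275 genes, 336 met this limit, another 897 held 1 to 59 counts and 1536 held 0. RP24-255G23.1 with 60 counts, Gm14396 with 61 and Gm26690 with 63 lay just inside the limit, and A430105J06Rik, D430018E03Rik and Gm26664 with 59 each lay just outside it. The limit reads the sum over all libraries, so the levels of the members are given as a description. It does not read the difference between the groups directly. Some members with few counts nevertheless reached it mainly through the libraries of a single group. Gm14396, Gm22, Gm14230 and 9330104G04Rik did so through the severe libraries and 2810425M01Rik through the mild ones. The fold changes of such members are not independent of the limit. Poly-A RNA of whole kidneys was sequenced 28 days after ischaemia-reperfusion injury, in which blood flow to the kidney is stopped and then restored. The severe group was 3 wild-type C57Bl/6 kidneys after 35 min of ischaemia (libraries 13, 14 and 15), and the mild group was 3 wild-type C57Bl/6 kidneys after 20 min (libraries 7, 8 and 9). Both groups had been injured, and uninjured kidneys were not analysed here. The labels give no age, and nothing states that each kidney is from a different mouse; the p-values therefore cover the spread among these samples alone, which may be technical.

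A lincRNA is a transcript longer than a small RNA that lies between protein-coding genes and carries no long reading frame. Many members of this class are kept in the nucleus, where some, such as Neat1 and Malat1, sit in or beside nuclear bodies; others are precursors of microRNAs or of small nucleolar RNAs, the guides of RNA modification that are cut from introns. Many are transcribed at low level from a start shared with, or close to, a protein-coding gene.

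Gene counts per library ranged from 15240491 to 17730967, and 14883 genes had enough of them for edgeR's quasi-likelihood test. Levels are CPM, a gene's count scaled to a library of fixed size after TMM correction, with factors between 0.974 and 1.17 in severe libraries and between 0.943 and 0.945 in mild libraries. The chi-square per degree of freedom between replicates was 15.2 to 75.5 among severe and 3.86 to 5.66 among mild libraries, so that severe kidneys were less alike, library 14 most of all. The kidney label was checked with marker genes, and the 4 proximal tubule markers summed to between 4574.8 and 8643.6 CPM in severe and between 9482.7 and 10668.9 CPM in mild libraries. The 5 fibroblast markers summed to between 861.9 and 2863.7 CPM in severe and between 412.7 and 529.5 CPM in mild libraries, and the 5 macrophage markers to between 396.3 and 749.3 CPM in severe and between 196.3 and 234.0 CPM in mild libraries. Every severe library lay above every mild one for 5 of 5 markers of either kind and below for 4 of 4 proximal tubule markers, and 0 of these markers were at 0 counts. In whole kidney, fewer cells of a type and less RNA per cell cannot be told apart. The part of cell composition in the lincRNA values below was not tested.

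LincRNA members made up a small part of the gene counts of these poly-A libraries, and most of that part came from 3 genes. Yam1 among them overlaps a pseudogene of ribosomal RNA, so its part is uncertain, as described below. The 336 members held 529312 of 97040970 counts, which is 0.545%, and Neat1, Yam1 and Malat1 held 66.0% of these. The members' share of the library was 0.489%, 0.522% and 0.566% in severe libraries 13, 14 and 15, against 0.656%, 0.523% and 0.529% in mild libraries 7, 8 and 9. The groups overlapped, with mild library 7 above all others, and their means were 0.525 ± 0.0385% in severe and 0.569 ± 0.075% in mild libraries (SD, n = 3 each). Without mild library 7 the difference of the means, severe minus mild, was -0.000586 percentage points, against -0.0438 with it. The other 333 members held 0.189 ± 0.00867% in severe and 0.182 ± 0.00414% in mild libraries. Typical members were scarce: 211 of the 336 had 60 to under 300 counts in all, 113 had 300 to under 3000, and 12 had at least 3000. The median member averaged 2.06 CPM, or 1.27 RPKM (CPM per kilobase of gene length), over a median length of 1978 bases.

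**Figure D1:**
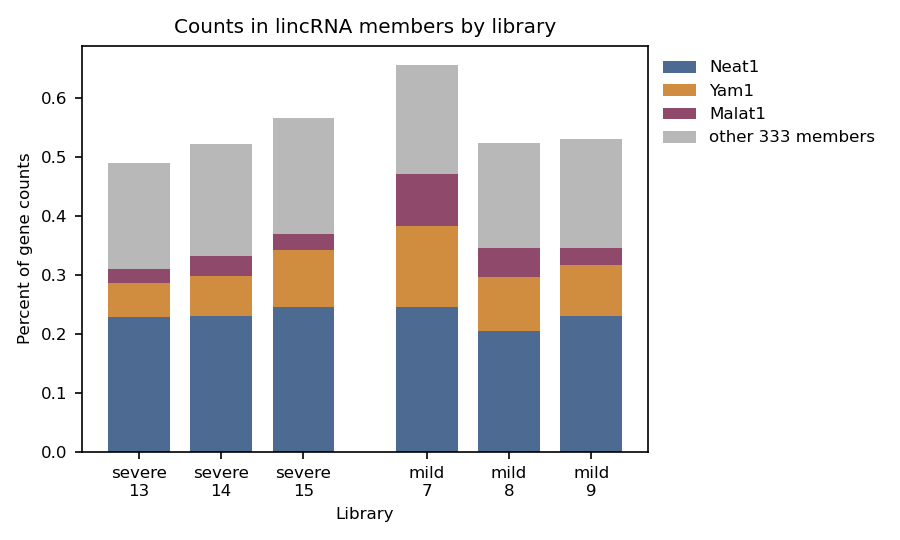
Percent of each library's gene counts that fell in lincRNA members, with severe libraries left of mild ones and stacked bars for Neat1, Yam1, Malat1 and the other 333 members. The part outside Neat1, Yam1 and Malat1 averaged 0.189% in severe and 0.182% in mild libraries, and mild library 7 had the highest total, 0.656%.

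The table's type lincRNA covers several kinds of locus. By the coordinates of the table, 146 members overlapped another gene, 130 of them a gene on the opposite strand, and 190 overlapped none. By the position of the starts 66 of the 336 were divergent, that is, they ran away from a protein-coding gene whose start lay within 2000 bases. GENCODE M21 held 318 of the members by gene ID and typed 211 of them lincRNA, 47 antisense, 31 bidirectional-promoter lncRNA, 17 processed transcript and 6 protein-coding. RefSeq, matched by gene ID or symbol, held 197 of them and typed 5 as protein-coding, namely 1810058I24Rik (also called Stmp1, a gene of a mitochondrial micropeptide), Fam169b, Gm2115, Gm6712 and Tmem61. The library kit is not described as keeping the strand and the strand setting of the counting is not given in the sources used here, so reads of a member and of a gene that overlaps it cannot be told apart.

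After the longer ischaemia, 0 lincRNAs passed the test between severe and mild kidneys. Of the 336 members, 325 had enough counts, and edgeR gave 0 of them an adjusted p (Benjamini-Hochberg, over all 14883 genes) under 0.05, against 2 genes, or 0.0134%, of all tested. The lowest adjusted p among them was 0.0867 (edgeR), and 3 members, Meg3, D230017M19Rik and 2810425M01Rik, were under 0.10. At an unadjusted p under 0.05, 20 members were higher and 17 lower in severe kidneys, 6.15% and 5.23% of those tested, where all genes gave 15.8% and 7.89%. In 24 tested members every severe library lay above every mild library, and in 33 every severe library lay below; these are 7.38% and 10.2%, against 17.9% and 16.1% of all tested genes. With library totals in place of TMM scaling, which moved the median log2 fold change of all genes to 0.169, the counts were 44 above and 15 below, which are 13.5% and 4.62%, against 29.2% and 6.61% of all tested genes with that scaling. With TMM scaling the remaining 268 members overlapped between the groups. Of the 11 members that were not tested, with 60 to 129 counts, 8 overlapped, 2 stood higher and 1 lower. The median log2 fold change (severe over mild, also given below as the log2 difference) was -0.05 in members and 0.00 over all genes, and the range ran from -1.49 to 1.97. Fold changes were less precise in lincRNAs, with a median SE of 0.275, against 0.142 over all genes. Among members that had at least 300 counts 7.2% were higher without overlap, against 17.6% of all genes with that many counts, and 18.4% were lower, against 18.4%. Among those with 60 to under 300 counts 7.5% were higher without overlap, against 19.1% of such genes, and 5.0% were lower, against 5.58%. With DESeq2, 2 members were called higher and 4 lower, 0.615% and 1.23% of those tested, where DESeq2 called 6.91% and 0.954% of all genes; the 6 were Meg3 and A530020G20Rik, and D230017M19Rik, Malat1, Tmem61 and 2810425M01Rik. Without severe library 13, edgeR called 14 members higher and 10 lower, beside 13.8% and 7.74% of all genes, and without severe library 14 it called 1 and 0, beside 2.4% and 0.931%. With quality weights for the libraries, limma-voom called 35 higher and 28 lower, beside 18.4% and 15.7% of all genes.

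**Figure D2:**
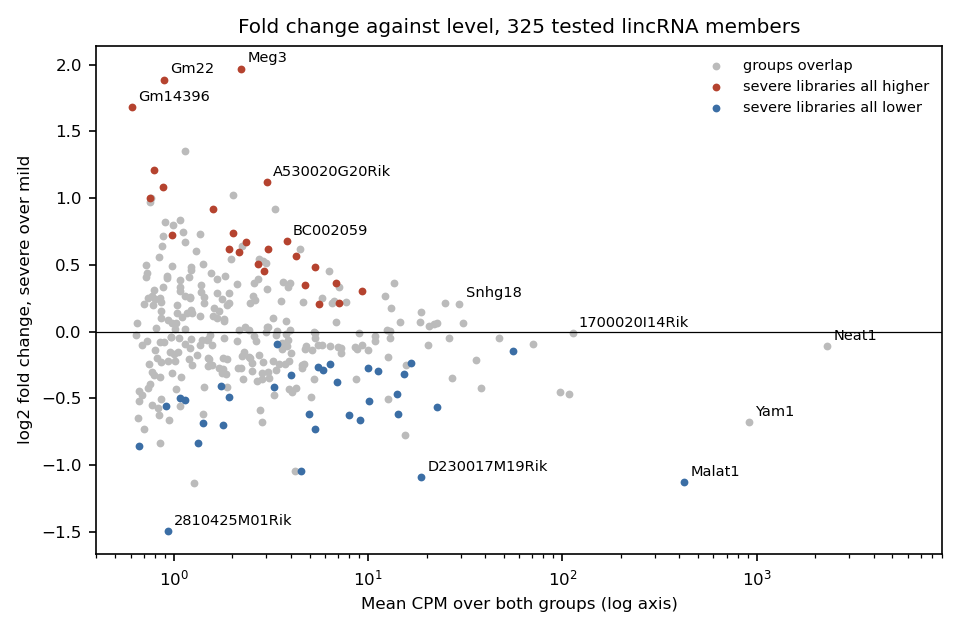
log2 fold change (severe over mild) of the 325 tested lincRNA members against their mean CPM on a log axis; points are members, coloured by whether the 3 severe libraries lie above, below or among the 3 mild ones. Fold changes run from -1.49 to 1.97, and 0 members passed the adjusted threshold of edgeR.

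Meg3 had the largest fold change among the 325 tested members. It is the maternally expressed noncoding RNA of the imprinted Dlk1-Dio3 domain, runs on the plus strand of chromosome 12 from 109541001 to 109571726 (mm10), and carries miR-770 in an intron. Its level was 5.52, 2.03 and 3.07 CPM in severe libraries 13, 14 and 15, against 1.17, 0.778 and 0.755 CPM in mild libraries 7, 8 and 9. All severe libraries lay above all mild ones, and library 13 was the highest, while library 14 led the severe group in fibroblast and macrophage markers. The log2 fold change was 1.97 ± 0.43 (SE; edgeR adjusted p = 0.0867), while DESeq2 gave an adjusted p of 0.00165 and limma-voom one of 0.153. Without severe library 13 it was 1.5 (edgeR adjusted p = 0.022), and without severe library 14 it was 2.25 (edgeR adjusted p = 0.0115). With each of the other libraries left out it lay between 1.87 and 2.2, and the edgeR adjusted p between 0.209 and 0.319. The promoter of Meg3 is printed because its fold change was the largest among the tested members. The window is the RefSeq one on build GRCm38.p6, 250 bases before to 50 after the start, at chr12:109540746-109541045 on the plus strand. Capitals mark the words CCAAT, TGACGTCA (a cyclic AMP response element) and TATAAA, searched on both strands, and the last stands on both strands in an overlapping pair.
Meg3 promoter: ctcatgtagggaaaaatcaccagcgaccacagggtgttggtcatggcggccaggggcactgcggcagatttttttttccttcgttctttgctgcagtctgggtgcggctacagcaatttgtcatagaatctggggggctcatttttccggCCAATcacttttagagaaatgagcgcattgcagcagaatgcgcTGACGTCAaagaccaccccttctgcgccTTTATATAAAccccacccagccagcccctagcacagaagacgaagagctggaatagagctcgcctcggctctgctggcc
Of 32851 RefSeq promoters of this length, 37.41% hold CCAAT, 1.79% hold TGACGTCA and 13.62% hold TATAAA; of the 154 members' promoters that RefSeq lists, 38.31%, 4.55% and 13.64% do. These matches are a description of the letters and name no factor.

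Other genes of imprinted domains were set beside Meg3 after its values were seen. H19, the maternally expressed RNA of the Igf2 domain and the host of miR-675, had 115, 2 and 5 counts in severe libraries 13, 14 and 15, against 2, 5 and 0 in mild libraries 7, 8 and 9. Its 129 counts passed the limit through library 13 alone, and it was not tested. Rian, the next noncoding RNA of the Dlk1-Dio3 domain, which the table does not type as lincRNA, stood at 1.80, 0.788 and 0.676 CPM in severe and at 0.896, 0.419 and 0.343 CPM in mild libraries, and the groups overlapped. Library 13 was the highest of the 6 for H19, Meg3, Rian, Dlk1 and Igf2, 5 of the 8 genes looked at, while Rtl1 was highest in mild library 9 and Dio3 and Dio3os in severe library 15. Several had few counts. Dlk1 had 45 in all, with 18 in library 13 and 11 in mild library 7, Rtl1 had 10 and Dio3 had 53. Igf2 stood at 1.51 CPM in library 13 and 1.24 CPM in mild library 7. The share of all genes highest in library 13 was not computed, so no pattern of imprinted genes is read from these values. Dio3os, a lincRNA on the strand opposite to the thyroid hormone deiodinase gene Dio3, stood at 2.15, 2.81 and 2.89 CPM in severe libraries, against 1.52, 1.56 and 2.13 CPM in mild ones. Every severe library was above every mild one, by a narrow margin, and the log2 fold change was 0.59 ± 0.25 (edgeR adjusted p = 0.201).

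The other members with the smallest p among those higher in severe kidneys mostly lie within or beside a coding gene, as members in general do. Of all 336 members, 108 overlapped their nearest coding gene, and the median gap was 429.5 bases. A530020G20Rik (chromosome 3, 121531611 to 121535438, plus strand) overlaps Slc44a3, a gene of the choline transporter-like family, on the opposite strand. It had 2.62, 4.95 and 4.86 CPM in severe and 1.72, 1.92 and 2.06 CPM in mild libraries, so that all severe libraries were above all mild ones. Its log2 fold change reached 1.12 ± 0.29 (edgeR adjusted p = 0.103; DESeq2 adjusted p = 0.0211), while Slc44a3 itself stood at 12.2 ± 1.79 CPM in severe and 11.1 ± 1.44 CPM in mild libraries. Gm10687 overlaps Mcam, which encodes the adhesion molecule CD146 of vessel walls, on the opposite strand. It had 1.74, 1.91 and 2.58 CPM in severe and 1.17, 1.02 and 1.10 CPM in mild libraries, without overlap, a log2 difference of 0.92 ± 0.26 (edgeR adjusted p = 0.114). Mcam did not overlap either, at 40.5 ± 10 CPM in severe and 27.6 ± 2.50 CPM in mild libraries, with a log2 fold change of 0.56 ± 0.17. BC002059 lies inside the range that the table gives to Chd1, a chromatin remodeller whose start is 1246572 bases away. It had 4.19, 4.95 and 4.98 CPM in severe and 2.69, 3.23 and 2.88 CPM in mild libraries without overlap, a log2 difference of 0.68 ± 0.18 (edgeR adjusted p = 0.107).

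Members with fewer counts had wider errors. Gm14396 lies 362 bases from Hoxd9, a positional identity gene of the trunk and limb, and had 12, 23 and 13 counts in severe and 4, 2 and 7 in mild libraries, for a log2 fold change of 1.68 ± 0.51. Gm22 had 0.931, 1.69 and 1.60 CPM in severe and 0.207, 0.12 and 0.824 CPM in mild libraries, and mild library 9 came close to severe library 13. Its log2 fold change was 1.89 ± 0.60 (edgeR adjusted p = 0.134). Gm14230 starts 115 bases from Tgif2, a homeobox corepressor of TGF-beta signalling, and runs away from it. It had 0.931, 1.52 and 1.17 CPM in severe and 0.551, 0.659 and 0.480 CPM in mild libraries, a log2 fold change of 1.08 ± 0.33. 4732487G21Rik, inside Gpatch2l, had 2.97, 2.14 and 2.46 CPM in severe and 1.31, 1.62 and 1.58 CPM in mild libraries, and its log2 fold change was 0.74 ± 0.24. In all 4 genes every severe library was above every mild one, and the edgeR adjusted p lay between 0.128 and 0.137. The other 16 tested members higher without overlap had log2 fold changes of 0.20 to 1.21.

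**Figure D3:**
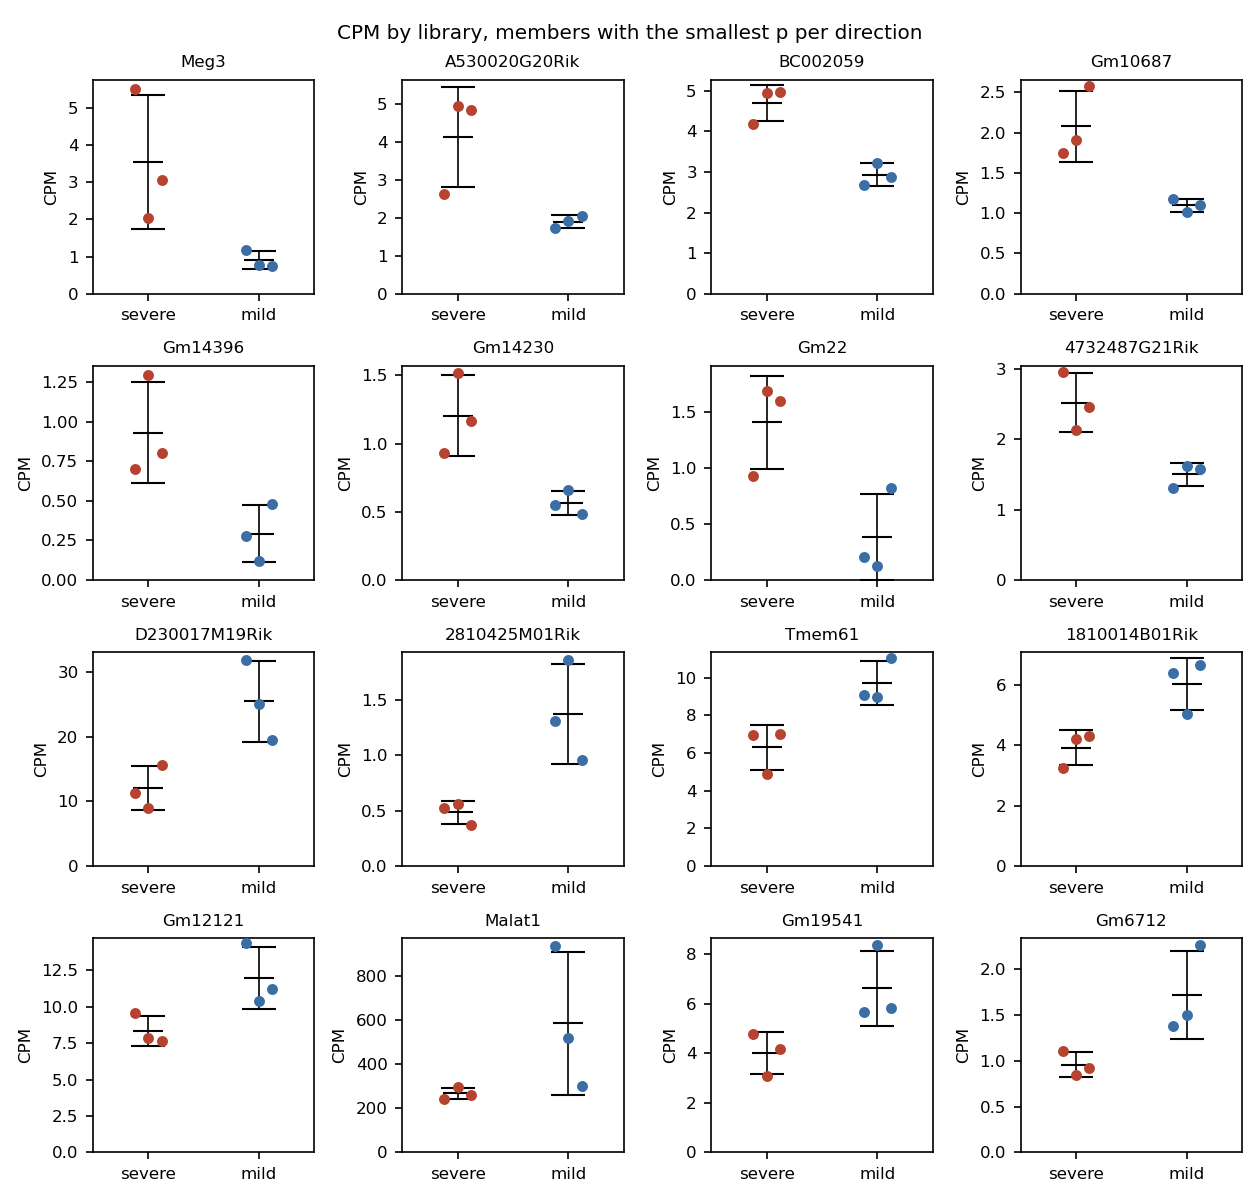
CPM in each library for the members with the smallest p in each direction, with the 3 severe libraries left of the 3 mild ones in every panel, points for libraries and a line for the group mean. With TMM scaling the severe libraries lie all above or all below the mild ones in every panel, and 0 of these genes passed the adjusted threshold.

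The members with the smallest p among those lower in severe kidneys are given beside the coding genes they overlap or neighbour. D230017M19Rik (chromosome 1, 72236465 to 72274869, plus strand) overlaps Pecr, the gene of a peroxisomal enoyl-CoA reductase of fatty acid metabolism, on the opposite strand. It had 11.3, 9.0 and 15.7 CPM in severe libraries 13, 14 and 15, against 31.9, 25.1 and 19.4 CPM in mild libraries 7, 8 and 9. All severe libraries were below all mild ones, and the log2 fold change was -1.09 ± 0.24 (edgeR adjusted p = 0.0867; DESeq2 adjusted p = 0.00141). Pecr stood at 379.8 ± 128.8 CPM in severe and 537.8 ± 5.39 CPM in mild libraries, a log2 difference of -0.50 ± 0.25 (edgeR adjusted p = 0.247). Whether the pair differs in its fold change was not tested. Tmem61 lies 6533 bases from Bsnd, which encodes barttin, the subunit of the kidney chloride channels of the thick ascending limb. It had 6.98, 4.90 and 7.01 CPM in severe and 9.10, 8.98 and 11.05 CPM in mild libraries, without overlap, a log2 difference of -0.63 ± 0.18 (edgeR adjusted p = 0.118). Bsnd stood at 42.0 ± 8.04 CPM in severe and 65.5 ± 9.71 CPM in mild libraries, a log2 difference of -0.64 ± 0.16 (edgeR adjusted p = 0.1). The 4 distal nephron markers summed to between 4230.6 and 7016.9 CPM in severe and between 7512.8 and 7768.6 CPM in mild libraries, and their part in these values was not tested.

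Gm19541 starts 888 bases from Tinag, the gene of a tubular basement membrane protein, and runs away from it. It had 4.77, 3.09 and 4.18 CPM in severe and 5.65, 8.38 and 5.83 CPM in mild libraries, a log2 difference of -0.73 ± 0.23 (edgeR adjusted p = 0.139). All severe libraries were below all mild ones, as for Tinag at 102.6 ± 16.9 CPM in severe and 131.3 ± 2.93 CPM in mild libraries. 2810425M01Rik, inside Fam207a, had the largest difference downwards among the tested members, with 0.523, 0.563 and 0.369 CPM in severe and 1.31, 1.86 and 0.961 CPM in mild libraries. Its log2 fold change was -1.49 ± 0.37 (edgeR adjusted p = 0.0991). Gm12121 had 9.54, 7.88 and 7.62 CPM in severe and 14.3, 10.4 and 11.2 CPM in mild libraries, and its log2 fold change was -0.52 ± 0.17. 1810014B01Rik, which overlaps the gene of the endoplasmic reticulum chaperone Hsp90b1, had 3.26, 4.22 and 4.30 CPM in severe and 6.41, 5.03 and 6.66 CPM in mild libraries, a log2 fold change of -0.62 ± 0.19. Hsp90b1 itself averaged 338.6 ± 35.5 CPM in severe and 340.8 ± 9.47 CPM in mild libraries. Gm6712, typed protein-coding by RefSeq, had 1.10, 0.844 and 0.922 CPM in severe and 1.38, 1.5 and 2.26 CPM in mild libraries, and its log2 fold change was -0.83 ± 0.30. For Gm12121, 1810014B01Rik and Gm6712 the edgeR adjusted p lay between 0.133 and 0.165, and their libraries did not overlap, though those of 1810014B01Rik did with library totals as scaling. Beside these genes and Malat1, described below, the other 25 tested members lower without overlap had log2 fold changes of -1.05 to -0.09.

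The nuclear lincRNAs stood on both sides of 0. Neat1, the scaffold of the nuclear bodies called paraspeckles, was the most abundant member at 2341, 1978 and 2345 CPM in severe and 2590.2, 2172 and 2431 CPM in mild libraries. The groups overlapped, and the log2 fold change was -0.11 ± 0.18 (edgeR adjusted p = 0.711) and 0.0514 with library totals as scaling. Malat1, a neighbour of Neat1 on chromosome 19 whose RNA gathers at splicing speckles, had 244, 295 and 261 CPM in severe and 934, 517 and 299 CPM in mild libraries. Every severe library was below every mild one, but mild library 9 lay near severe library 14 and mild library 7 far above, so that the spread within the mild group, 323 CPM (SD), exceeded the severe mean of 267 CPM. With library totals as scaling the groups overlapped, since severe library 14 had 0.0344% of its counts in Malat1 and mild library 9 had 0.0282%. The log2 fold change of Malat1 was -1.13 ± 0.36 (edgeR adjusted p = 0.138), and DESeq2 gave an adjusted p of 0.0145. With library totals it was -0.95 (edgeR adjusted p = 0.158). Without mild library 7 it was -0.61 (edgeR adjusted p = 0.338). Ftx and Jpx, noncoding RNAs of the X-inactivation centre, had log2 fold changes of -0.27 ± 0.12 and -0.37 ± 0.25. Ftx had 9.48, 8.38 and 9.28 CPM in severe and 10.2, 11.4 and 11.1 CPM in mild libraries, without overlap, and Jpx overlapped. Pvt1, beside Myc, had 3.72, 2.36 and 2.95 CPM in severe and 3.79, 3.17 and 3.57 CPM in mild libraries. Of the 6 tested members of the list of nuclear or chromatin-associated RNAs, 0 passed the test, Meg3 stood higher and Malat1 and Ftx lower without overlap, and the median log2 fold change was -0.24, against 0.00 over all genes. With library totals Meg3 kept its place, while the groups overlapped for Malat1 and Ftx.

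Per length the order of the most abundant members changed, and Yam1 came first with 382 RPKM in severe and 612 RPKM in mild libraries. Neat1 followed with 107 RPKM in severe and 115 RPKM in mild libraries, and Malat1 with 38.2 RPKM in severe and 83.5 RPKM in mild libraries. Yam1 had 596, 569.7 and 932 CPM in severe and 1464, 976 and 919 CPM in mild libraries. Severe library 15 lay above mild library 9, so the groups overlapped, and the log2 fold change was -0.68 ± 0.26 (edgeR adjusted p = 0.181). The gene (chromosome 17, 39846958 to 39848788, plus strand) overlaps Rn18s-rs5 in RefSeq, a pseudogene of the 18S ribosomal RNA, which RefSeq places from 39846354 to 39848202. Reads of ribosomal RNA that match such a copy cannot be told apart from reads of Yam1, so its level is uncertain. Gm26917 on the list of ribosomal or repeat loci, not typed as lincRNA, had 5.35, 5.29 and 7.50 CPM in severe and 11.6, 7.07 and 8.10 CPM in mild libraries. Its libraries ran in nearly the same order as those of Yam1, with mild library 7 the highest.

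The other abundant members were more alike between the groups. 1700020I14Rik, known as Cyrano or Oip5os1 and the site of a strong match to miR-7, had 112, 119 and 107 CPM in severe and 111, 117 and 113 CPM in mild libraries, a log2 fold change of -0.01 ± 0.08. 1810058I24Rik averaged 46.5 ± 0.807 CPM in severe and 47.9 ± 1.97 CPM in mild libraries, and AI480526 averaged 68.4 ± 11.5 CPM in severe and 72.8 ± 2.97 CPM in mild libraries. These 3 genes had log2 fold changes between -0.09 and -0.01, each within its SE, and turned to the other side of 0 with library totals as scaling, which moved the median of all genes to 0.169. D630029K05Rik had 128, 49.1 and 97.0 CPM in severe and 132, 123 and 125 CPM in mild libraries, with library 14 far below the rest. Gm10804 and Gpr137b-ps were likewise lowest in library 14, at 53.4 and 21.3 CPM, and averaged 82.4 ± 25.2 and 32.5 ± 9.75 CPM in severe, against 113 ± 16.0 and 43.5 ± 5.19 CPM in mild libraries. The 3 genes had log2 fold changes of -0.47 ± 0.29, -0.45 ± 0.23 and -0.42 ± 0.22, and all overlapped between the groups. C330006A16Rik had 55.9, 47.3 and 56.3 CPM in severe and 59.4, 58.6 and 58.6 CPM in mild libraries, a log2 fold change of -0.15 ± 0.09 without overlap. With library totals it was 0.0147 and the groups overlapped. Over all 325 tested members, library 14 was the lowest of the severe libraries in 139 and the highest in 107. Over all 14883 tested genes it was the lowest in 6145 and the highest in 6175. The SD on the log2 scale was larger in the severe group in 64.9% of members, against 73.2% of all genes. Crnde, beside Irx5, and Haglr, antisense to Hoxd3, were the members matched by name to the cytoplasmic and the Hox lists. Their log2 fold changes were -0.43 ± 0.36 and 0.51 ± 0.31, with overlap. The cytoplasmic list also holds Oip5os1, the other name of 1700020I14Rik, given above at -0.01 ± 0.08. Of the lists of immune-linked RNAs and of ribosomal or repeat loci, 0 names were those of members. The immune-linked list names hosts of miR-155 and miR-142, and the members Gm26667 and A430104N18Rik, which hold these microRNAs, are described below.

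Because 14 members hold a microRNA hairpin on their own strand, by RefSeq coordinates on build GRCm38.p6, the mature sequences of the hosts that the values below turn on are shown, with the seed (bases 2 to 8) in capitals. The libraries read the long host RNA and not the mature microRNA. The pair in A330023F24Rik shares the seed AGCACCA, the seed of the miR-29 family, which is known for its sites in collagen messages.
mmu-miR-29b-3p: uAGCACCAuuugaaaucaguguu
mmu-miR-29c-3p: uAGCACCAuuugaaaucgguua
In Mir17hg, the host of the miR-17-92 cluster, miR-17 and miR-20a share one seed and miR-19a and miR-19b another.
mmu-miR-17-5p: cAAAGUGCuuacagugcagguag
mmu-miR-20a-5p: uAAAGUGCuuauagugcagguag
mmu-miR-19a-3p: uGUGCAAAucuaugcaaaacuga
mmu-miR-19b-3p: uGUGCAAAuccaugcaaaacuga
The other hosts shown hold a microRNA with a seed of its own among the members, namely Meg3, 6720427I07Rik, Gm26667, A430104N18Rik and H19 in this order.
mmu-miR-770-5p: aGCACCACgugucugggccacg
mmu-let-7d-5p: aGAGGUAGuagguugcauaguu
mmu-miR-155-5p: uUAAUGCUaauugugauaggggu
mmu-miR-142a-3p: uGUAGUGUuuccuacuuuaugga
mmu-miR-675-5p: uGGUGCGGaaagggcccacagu

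The microRNA hosts, picked by position after earlier results were known, were spread around 0. Of the 14, 11 were tested, 6 had a log2 fold change above 0 and 5 below, and 0 passed the test. With library totals 8 stood above 0 and 3 below, and 6 above the median of all genes. A330023F24Rik (miR-29b and miR-29c) had 16.9, 13.2 and 16.0 CPM in severe libraries 13, 14 and 15, against 18.2, 18 and 17.9 CPM in mild libraries 7, 8 and 9. All severe libraries were lower, with library 14 the lowest, and the log2 fold change was -0.23 ± 0.12 (edgeR adjusted p = 0.248). 6720427I07Rik (let-7d) had 6.80, 8.55 and 7.75 CPM in severe and 6.41, 5.69 and 5.83 CPM in mild libraries, a log2 difference of 0.37 ± 0.15 (edgeR adjusted p = 0.198). Here all severe libraries were higher, again with library 14 at the extreme. Mir17hg had 5.93, 9.68 and 7.99 CPM in severe and 6.41, 6.77 and 5.56 CPM in mild libraries, with overlap, and a log2 fold change of 0.33 ± 0.20.

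Some hosts carry microRNAs known from blood cells. A430104N18Rik holds miR-142, known from the haematopoietic lineage, and had 0.756, 1.58 and 1.11 CPM in severe and 0.965, 0.599 and 0.892 CPM in mild libraries, a log2 fold change of 0.49 ± 0.37. Gm26667 holds miR-155, a microRNA induced in activated macrophages and lymphocytes, and had 3, 34 and 30 counts in severe and 3, 9 and 9 counts in mild libraries. Severe libraries 14 and 15 were above the rest and library 13 was at the level of mild library 7, so the groups overlapped; with 88 counts in all it was not tested. Macrophage markers were also lowest in library 13 among severe libraries, at 396.3 CPM, against 749.3 and 461.7 CPM in libraries 14 and 15. So were fibroblast markers, at 861.9 against 2863.7 and 1501.4 CPM, and injured tubule markers, at 168.9 against 767.0 and 378.5 CPM. Endothelial markers were highest there, at 327.8 CPM. Library 13 was the severe library nearest the mild mean in 8964 of the 14883 tested genes. The part of these differences was not tested. The 5 markers of T and NK cells summed to between 3.95 and 6.39 CPM in severe and between 1.93 and 5.70 CPM in mild libraries. A430106G13Rik (miR-181b) had 8, 17 and 20 counts in severe and 8, 10 and 8 counts in mild libraries and was not tested either. Gm27028 (miR-30c), E130102H24Rik (miR-101a) and C130071C03Rik (miR-9) had log2 fold changes of -0.23 ± 0.25, -0.05 ± 0.13 and 0.24 ± 0.35 with overlap.

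Members that hold a small nucleolar RNA on their strand mostly had fold changes above 0, and 0 of them passed the test. Of 13 such members 12 were tested, 10 had a log2 fold change above 0 and 2 below, and the median was 0.22, against 0.00 over all genes. Members that also hold a microRNA, such as 2810008D09Rik and 2900076A07Rik, were counted among the microRNA hosts as well. With library totals 12 stood above 0, and 10 above the median of all genes. The Snhg genes among the members, small nucleolar RNA hosts named as such, all overlapped between the groups. Snhg1 had 12.9, 19.5 and 13.6 CPM in severe and 13.4, 12.3 and 10.1 CPM in mild libraries, and a log2 fold change of 0.36 ± 0.19. Snhg18 had 27.7, 35.7 and 31.7 CPM in severe and 28.3, 28.2 and 25.7 CPM in mild libraries, and a log2 fold change of 0.21 ± 0.11. Library 14 was the highest of the severe libraries in both, as in Snhg4, Snhg6 and Snhg7, but not in Snhg12, and it was the lowest in 2810008D09Rik. Snhg6 and Snhg7 had log2 fold changes of 0.26 ± 0.14 and 0.25 ± 0.16, Snhg12 0.01 ± 0.11 and Snhg4 -0.07 ± 0.21, the last being 0.114 with library totals. Without severe library 14, Snhg1, Snhg18, Snhg6 and Snhg7 fell to 0.15, 0.114, 0.148 and 0.135. Snhg4 was then at -0.181 and Snhg12 at 0.0614. The holder that did not overlap was 2410004N09Rik, named here after its values were seen, with 7.33, 7.43 and 7.99 CPM in severe and 6.75, 6.83 and 5.97 CPM in mild libraries, a log2 difference of 0.22 ± 0.14 (edgeR adjusted p = 0.336). In GENCODE M21 it is Epb41l4aos, a name on the list of small nucleolar RNA hosts.

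**Figure D4:**
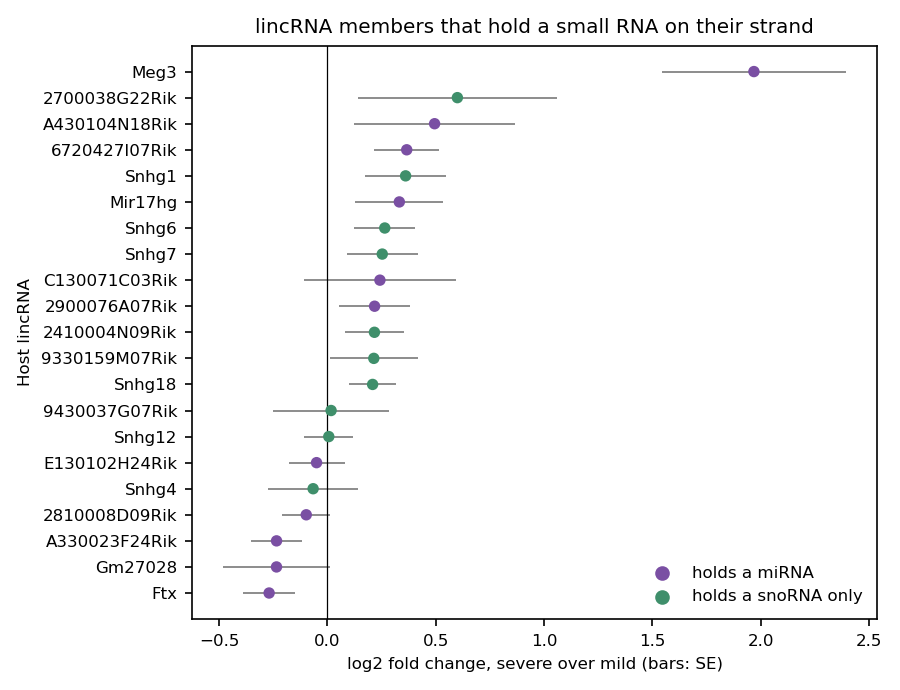
log2 fold change (severe over mild) with its SE for each tested member that holds a microRNA or a small nucleolar RNA on its strand. Meg3 lies highest at 1.97. Of the microRNA hosts 6 lie above and 5 below 0, and of the small nucleolar RNA holders 10 lie above and 2 below. Members that hold both, such as 2810008D09Rik and 2900076A07Rik, count in both sets and are coloured as microRNA hosts. Members on chromosome 18 were not searched for microRNAs.

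Each lincRNA was set beside its nearest protein-coding gene by the coordinates of the table. The median gap was 429.5 bases, and 108 members overlapped their neighbour. In 285 pairs both genes were tested, and in 185 of them (64.9%) the fold changes had the same sign, with a Pearson r of 0.332 and a Spearman rho of 0.322 across pairs. These are descriptions across genes of the same 6 libraries, and genes are not independent replicates. The share was 76.3% in 93 overlapping pairs, where reads cannot be told apart, 70.5% in 61 divergent pairs (r = 0.584) and 54.4% in 68 pairs more than 10000 bases apart. Both genes of a pair stood higher without overlap of the groups in 5 pairs and lower in 11, and in 3 they stood on opposite sides. Taken singly, 7.38% of tested members stood higher and 10.2% lower without overlap, against 17.9% and 16.1% of all tested genes. Pairs of genes that are not neighbours were not counted, so these counts and the shares of equal sign have no such value beside them.

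**Figure D5:**
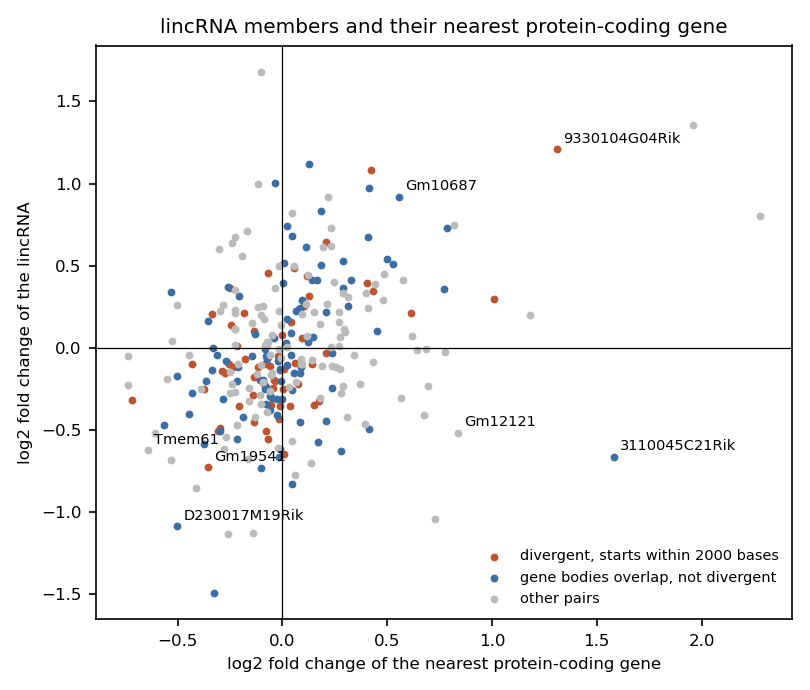
log2 fold change (severe over mild) of a lincRNA member against that of its nearest protein-coding gene for 285 tested pairs, coloured by overlapping, divergent and other pairs. Points lie more often in the quadrants of equal sign (185 of 285 pairs), with r = 0.332 across pairs.

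A divergent pair beside a regulator of Wnt signalling was picked after its values were seen. 9330104G04Rik starts 431 bases from Dact3, an inhibitor of Wnt signalling. It had 0.756, 1.35 and 1.23 CPM in severe and 0.414, 0.719 and 0.275 CPM in mild libraries, a log2 difference of 1.21 ± 0.43 (edgeR adjusted p = 0.16). Dact3 stood at 8.56 ± 2.73 CPM in severe and 3.46 ± 0.677 CPM in mild libraries, a log2 difference of 1.31 ± 0.28 (edgeR adjusted p = 0.0867). All severe libraries lay above all mild ones for the lincRNA and for its neighbour.

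The 3 pairs on opposite sides were also picked after their values were seen. 3110045C21Rik overlaps Ddr2, a collagen receptor of fibroblasts, and had 9.60, 4.33 and 7.19 CPM in severe and 10.7, 11.8 and 10.9 CPM in mild libraries, a log2 difference of -0.66 ± 0.26 (edgeR adjusted p = 0.184). Ddr2 stood at 34.4 ± 18.9 CPM in severe and 11.6 ± 3.70 CPM in mild libraries, a log2 difference of 1.58 ± 0.40 (edgeR adjusted p = 0.1). All severe libraries were below the mild ones for the lincRNA and above them for Ddr2. Gm12121, given above, lies 49532 bases from Lcp2, an adaptor of immune receptor signalling, which had 6.05 ± 2.61 CPM in severe and 3.38 ± 0.380 CPM in mild libraries. A330023F24Rik, the miR-29 host, lies 3377 bases from the complement regulator Cd46, at 1.46 ± 0.198 CPM in severe and 0.908 ± 0.300 CPM in mild libraries. The difference between the genes of a pair was not tested.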

How the data were processed

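The authors deposited raw read counts per Ensembl gene, with gene type and length; per the labels' protocols, poly-T beads selected the RNA and a NEBNext Ultra kit made the libraries. Per the submitters' processing notes, the tools were HTSeq 0.6.1, TopHat2 2.0.12 and Bowtie2 2.2.3 on build mm10, and which tool did what, with which strand setting, is not given in the sources used. Column names gave the group (minutes of ischaemia); their numbers matched no sample title. 0 columns were left out. Genes passing filterByExpr in edgeR 4.0.16 (R 4.3.3) were scaled by TMM and tested with the robust quasi-likelihood F test, with Benjamini-Hochberg adjustment over all 14883 genes and a threshold of 0.05; the biological coefficient of variation was 0.144. SEs were taken as the ratio of log2 fold change to the square root of F. A gene at 0 counts allows up to 3 counts, 0.169 to 0.207 CPM, counting error only. RPKM was computed from CPM and the deposited length. The pipeline was tested on simulated data.

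The members and lists were chosen with earlier results of these data known. Named genes were the 8 members per direction with the smallest p, the 10 with the highest mean CPM, the 3 per direction with the largest non-overlapping fold change, those next to the 60-count limit, members of lists of known lincRNAs, and their nearest coding genes; others are marked. Alternatives were other scalings, filters, DESeq2 1.42.0, limma-voom (limma 3.58.1) with and without quality weights, other count limits and each library left out. Lists were matched by the deposited gene names alone, so a member listed under another name was missed. Positions were matched to GENCODE M21 and RefSeq GRCm38.p6, and figures drawn with matplotlib 3.10.9. 1 pair of neighbouring genes is not reported here.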

Additional observations from a re-analysis of the deposited data

How the results depend on the processing

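The count of genes called, 2, became 1 with library totals as scaling, 146 with no filter on low counts, 1171 with DESeq2 and 5080 with limma-voom and quality weights, and lay between 0 and 3269 as each library was left out (0 without mild library 7, 8 or 9, 1 without severe library 15, 501 without 14 and 3269 without 13). LincRNA members called higher, 0, became 2 with DESeq2, 35 with quality weights (18.4% of all genes) and 0 to 14 as each library was left out; members called lower, 0, became 4, 28 (15.7% of all genes) and 0 to 10. Without severe library 13 the calls were 14 higher and 10 lower, and without severe library 14 they were 1 and 0. Both filters, the 3 other scalings, limma-voom without weights and non-robust dispersion left both counts at 0. Library totals moved the median of all genes by 0.169 (log2) and the non-overlapping members to 44 higher and 15 lower, against 24 and 33. Leaving out a library, with fewer libraries to overlap, gave 34 to 65 higher (10.5% to 20.0%, against 20.2% to 29.3% of all genes) and 43 to 64 lower (13.2% to 19.7%, against 19% to 27.3%). The median of the members was 0.119 with library totals and 0.02 with quality weights, against -0.05.

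Members with fold changes near 0 changed sign. With library totals, whose shift of 0.169 in the median of all genes exceeded the size of each of their fold changes, 1700020I14Rik stood at 0.161, 1810058I24Rik at 0.124, AI480526 at 0.0685, C330006A16Rik at 0.0147, Neat1 at 0.0514 and Snhg4 at 0.114. For the other settings the cause was not tested. 1700020I14Rik was 0.0214 with upper-quartile scaling, and AI480526 and Snhg4 were 0.0968 and 0.00225 with quality weights. Snhg12 was -0.00029 with no filter. As single libraries were left out, 1700020I14Rik lay between -0.0521 and 0.0206, AI480526 between -0.216 and 0.0264, Snhg4 between -0.181 and 0.0884 and Snhg12 between -0.0627 and 0.0614. Of the other values of named members, 510 kept their direction and side of the threshold and 37 crossed it in the same direction. No paired analysis was possible because the columns' numbers match no sample title and the groups share none.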
